A study of Mus musculus with 6 samples.

Results

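Pyrimidine nucleotides and the deoxynucleotides made from them are the building blocks that a dividing cell needs for RNA and DNA. The enzymes described here are the 10 named by the gene symbols Cad, Dhodh, Umps, Ctps, Ctps2, Rrm1, Rrm2, Tk1, Dctd and Dut, chosen by symbol from the 24346 symbols in each expression table. All 10 were present in the tables and all 10 passed the filter on low values, which left 10597 genes for testing. The samples were 3 RNA preparations from parental CT26.mMR1 cells and 3 from M8 cells. Every sample title, parental and M8, carries the label cl9, which the study does not explain. CT26 is a colorectal tumor line of the mouse, and both groups carried a retrovirus that makes them overexpress mouse MR1, the molecule that presents small metabolites to MAIT cells. M8 is 1 clone grown by limiting dilution from parental cells treated with the mutagen N-ethyl-N-nitrosourea (ENU), and it was picked in the study for its stronger activation of a MAIT reporter line and its surface MR1, so a feature of that clone cannot be told apart from an effect of the mutagen. No drug, ligand or T cell is named for either group at the time of RNA extraction. The study calls its replicates biological, and the labels do not say whether the 3 preparations of a line came from separate cultures, so the p-values measure the spread between these preparations.

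In the de novo pathway, the multifunctional protein CAD starts the pyrimidine ring, DHODH oxidises it at the inner mitochondrial membrane, and UMPS adds ribose phosphate to give UMP. CTP synthases turn UTP into CTP. Ribonucleotide reductase, built from a large subunit (RRM1) and a small subunit (RRM2), removes the 2′ oxygen from ribonucleotides and sets the supply of DNA precursors. Thymidylate synthase makes the thymine nucleotide from dUMP, which comes from dCMP through the deaminase DCTD or from dUTP through the dUTPase DUT, and TK1 recovers thymidine from outside this route. RRM2 and TK1 are textbook S-phase proteins whose amounts are cut back after division by ubiquitin ligases.

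Expression is given in FPKM, fragments scaled to transcript length and to the number mapped in the library, as deposited. Depth was estimated from the steps between low FPKM values, at 23.7 to 26.9 M mapped reads per parental library and 19.4 to 21.9 M per M8 library. The M8 libraries were thus the shallower ones, and the part of depth in the differences was not tested. Mr1 stood at 1046 to 1139 FPKM in the parental samples and at 1034 to 1095 FPKM in M8. Of 11 colon epithelium markers, 4 (Epcam, Cdh1, Krt19 and Cdx2) were listed at 0 in all 6 samples, and 3 passed the filter. Krt18, a keratin of simple epithelia, had 24.5 to 36.6 FPKM in parental cells and 34.7 to 38.4 FPKM in M8, with overlap (log2 fold change 0.18, limma adjusted p = 0.321). Krt20, a keratin of the gut epithelium, had 15.1 to 19.8 FPKM in parental cells and 10.8 to 12.7 FPKM in M8 and was lower in M8 (limma adjusted p = 0.00438). Lgals4, an intestinal galectin, was also lower, with 1.29 to 2.15 FPKM and 0.585 to 0.795 FPKM (limma adjusted p = 0.00728). The summed level of this list was 41.8 to 57.7 FPKM and 48.1 to 50.1 FPKM. Of 8 fibroblast and mesenchyme markers, summed at 2452 to 2855 FPKM in parental cells and 2655 to 2754 FPKM in M8, Pdgfrb was higher in M8 (log2 fold change 0.25), Pdgfra (-0.43) and Dcn (-0.38) were lower, and Vim had 1751 to 2137 FPKM over both lines without a call. The part of these marker differences in the results on the enzymes was not tested. Of 8 leukocyte markers, Ptprc was at most 0.00797 FPKM and 3 were listed at 0, and Cd68 was the only one to pass the filter. Cd68, a lysosomal protein typical of macrophages, had 3.77 to 4.90 FPKM in parental cells and 1.39 to 2.46 FPKM in M8 and was lower in M8 (log2 fold change -0.96, limma adjusted p = 0.00203). The summed level of the leukocyte list was 4.12 to 5.46 FPKM in parental samples and 1.45 to 2.77 FPKM in M8, and that of 4 endothelial markers was at most 0.0853 FPKM.

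A gene was counted as higher or lower in M8 when limma's test on log2(FPKM + 1) gave an adjusted p below 0.1, the false discovery rate the study used, with a fold change of any size. Of the 10 enzymes, 6 were higher in M8 and 0 were lower. Among all genes tested, 21.2% were higher and 16.5% were lower, 2250 and 1745 genes. This balance depended on scaling, with 1470 higher and 2769 lower genes under upper-quartile scaling and 1658 and 2209 with values rescaled to TPM. The median log2 fold change was 0.17 over the 10 enzymes and 0.0069 over all genes tested. For the same 6 enzymes every M8 sample exceeded every parental sample, as it did for 24.8% of all genes tested. For 0 enzymes was every M8 sample below the parental ones, against 20.4% of all genes. The members were chosen with earlier results of these data known, and these counts describe them without testing them as a group. The differences were small, with ratios of mean FPKM from 1.12 to 1.25 in the 6 higher enzymes, and 0 of the 10 changed at least 1.5-fold.

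**Figure D1:**
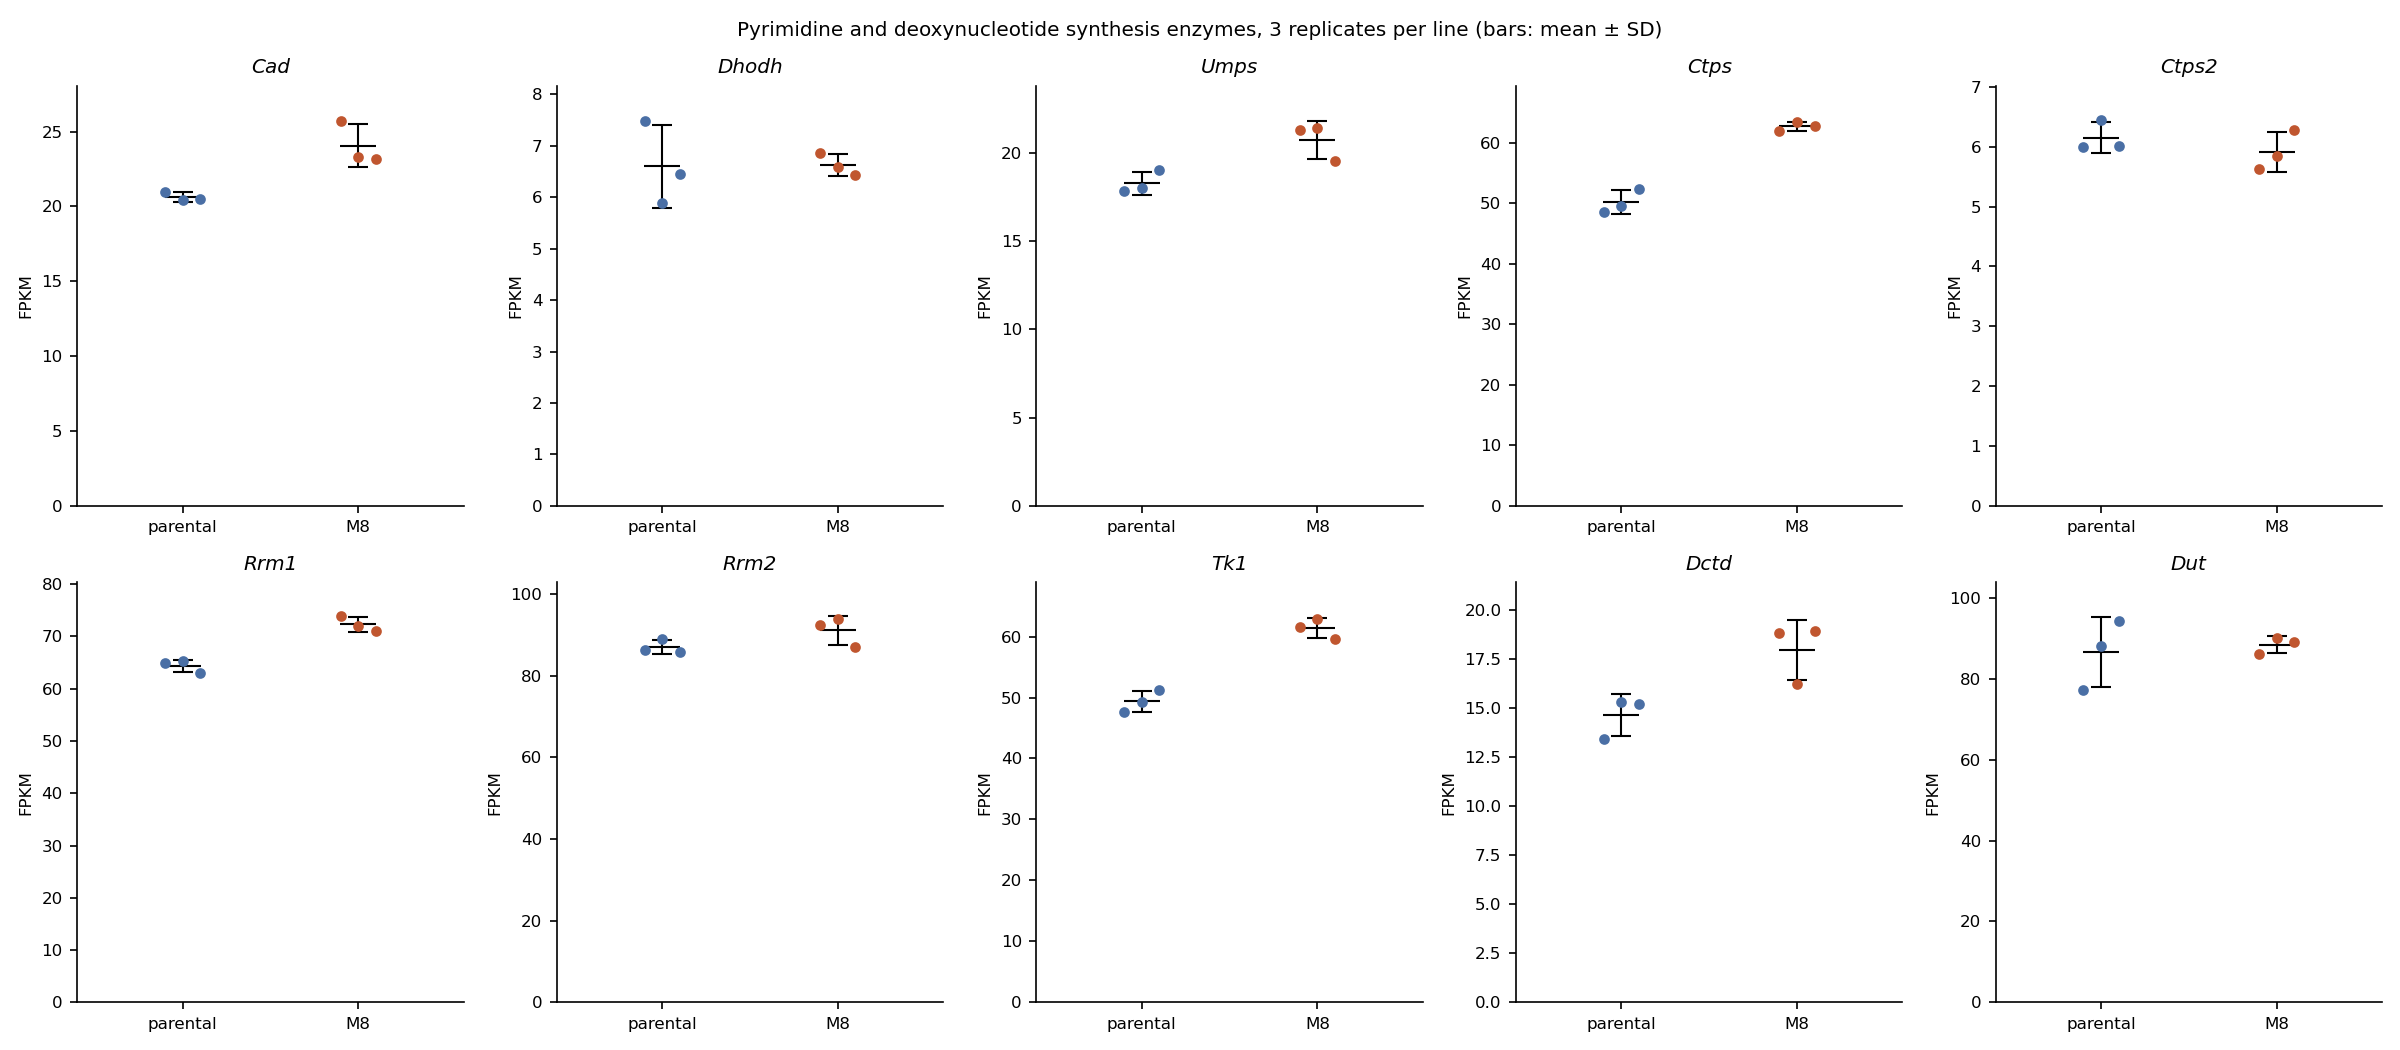
FPKM of the 10 enzymes in each of 3 parental (blue) and 3 M8 (orange) samples, with bars for the mean ± SD; every axis starts at 0. The M8 points lie above all parental points for Cad, Umps, Ctps, Rrm1, Tk1 and Dctd and overlap them for Dhodh, Ctps2, Rrm2 and Dut.

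FPKM values are per transcript length and can be set side by side between genes. In both lines the order of the mean levels was Rrm2, Dut, Rrm1, Ctps, Tk1, Cad, Umps, Dctd, Dhodh and Ctps2. In parental cells it ran from 87.0 FPKM for Rrm2 down to 6.15 FPKM for Ctps2, and in M8 from 91.1 to 5.92 FPKM. Neighbours whose samples overlapped in level were Rrm2 and Dut and also Ctps and Tk1, in both lines, and in parental cells Dhodh and Ctps2. The deoxynucleotide enzymes Rrm2, Dut and Rrm1 thus had the 3 highest levels, and Dhodh and Ctps2 the 2 lowest. Summed over the 10 enzymes, the level was 390 to 414 FPKM in the parental samples and 444 to 456 FPKM in M8.

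The letters before a transcription start are shown for the ribonucleotide reductase pair and the CTP synthase pair. In both pairs 1 gene passed the test as higher in M8 and its partner did not pass it. Each run is the 120 bases before 1 RefSeq transcription start of the gene (build GRCm38.p6, the first listed), 5′ to 3′ on the gene's strand, with capitals marking a CCAAT box (CCAAT) or a GC box (GGGCGG) on either strand. Rrm1 (chr7:102441575-102441694, plus strand) and Rrm2 (chr12:24708134-24708253, plus strand) come first, then Ctps (chr4:120570277-120570396, minus strand) and Ctps2 (chrX:162902051-162902170, plus strand). The run of Ctps2 lies inside the gene as annotated, since other transcripts start further upstream.
Rrm1: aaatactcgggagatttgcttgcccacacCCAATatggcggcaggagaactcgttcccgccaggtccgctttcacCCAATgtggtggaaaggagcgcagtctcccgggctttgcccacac
Rrm2: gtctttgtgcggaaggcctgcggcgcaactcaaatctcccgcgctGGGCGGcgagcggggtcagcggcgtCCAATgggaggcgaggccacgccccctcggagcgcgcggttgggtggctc
Ctps: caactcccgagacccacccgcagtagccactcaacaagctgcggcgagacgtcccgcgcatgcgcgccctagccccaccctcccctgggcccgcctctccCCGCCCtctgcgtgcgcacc
Ctps2: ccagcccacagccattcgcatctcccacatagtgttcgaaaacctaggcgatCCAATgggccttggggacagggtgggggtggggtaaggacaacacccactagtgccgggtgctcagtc

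RefSeq windows of 250 bases before to 50 bases after a start were found for 9 of the 10 enzymes, in 14 windows; none was found for Dhodh. A CCAAT box, the letters bound by the factor NF-Y, was present for Rrm1, Rrm2, Dctd and Ctps2, in 5 of the 14 windows and in 37.4% of all 32851 RefSeq windows of this length. Rrm1 held 2, starting 91 and 45 bases before the start, and Rrm2 held 1, starting 50 bases before it. A GC box, the letters bound by Sp1, was present for 7 enzymes, in 8 windows, and in 35.7% of all windows. The 8-letter E2F forms TTTCCCGC, TTTGGCGC, TTTCGCGC and TTTGCCGC, searched on both strands, were in 0 of the 14 windows and in 2.26% of all windows. At so low a share, 0 of 14 is uninformative, and other E2F forms were not searched. The count does not show that these genes lack E2F sites. The E-box CACGTG was likewise in 0 windows (7.15% of all), and the cell cycle element TTTGAA was in 1, that of Umps (17.9% of all). Bases further than 50 after a start were not searched, so these counts do not show that a gene lacks an element there. Rrm2, which did not pass the test, and Rrm1, which did, both carried CCAAT letters within 100 bases of the start.

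Of the 3 enzymes that make UMP, Cad and Umps were higher in M8 and Dhodh did not pass the test. Cad had 21.0, 20.4 and 20.5 FPKM in the parental samples and 25.7, 23.3 and 23.2 FPKM in M8. M8 replicate 1 was the highest of the 6, and the lines did not overlap. The difference was 0.21 on the log2(FPKM + 1) scale (standard error, SE, 0.052; limma adjusted p = 0.0159), a ratio of means of 1.17. Umps had 17.8, 18.0 and 19.0 FPKM in parental cells and 21.3, 21.4 and 19.5 FPKM in M8. The lines came closest in parental replicate 3 and M8 replicate 3, without overlap. Its log2 fold change was 0.17 (SE 0.053, limma adjusted p = 0.0384), and the call was lost without parental replicate 2 (adjusted p = 0.101), without M8 replicate 1 (0.129) or without M8 replicate 2 (0.127).

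Dhodh encodes the mitochondrial step, which links pyrimidine synthesis to the respiratory chain. It had 7.47, 5.88 and 6.44 FPKM in the parental samples and 6.86, 6.59 and 6.42 FPKM in M8. The M8 samples fell inside the parental range, and the parental coefficient of variation of 12.2% was the widest of the 10 enzymes. The log2 fold change was 0.010, with a 95% confidence interval of -0.17 to 0.19 and a limma adjusted p of 0.936. The interval does not exclude a rise as large as that of Umps. The ratio of Cad to Dhodh within a sample was 2.81, 3.48 and 3.19 in parental cells and 3.75, 3.53 and 3.61 in M8, without overlap. That of Cad to Umps was 1.13 ± 0.0486 (SD, n = 3) and 1.16 ± 0.0647 (SD, n = 3), and its samples overlapped.

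The CTP synthases behaved unequally. Ctps, the form tied to proliferation, had 48.6, 49.5 and 52.4 FPKM in parental samples and 61.9, 63.4 and 62.8 FPKM in M8. All M8 samples were far above the parental ones relative to the spread within a line. Its log2 fold change of 0.32 (SE 0.042, limma adjusted p = 0.00114) was close to that of Tk1, given below, and which enzyme had the largest changed with the setting. Ctps2, the second CTP synthase, had 5.99, 6.45 and 6.01 FPKM in parental cells and 5.62, 5.85 and 6.28 FPKM in M8. The lines overlapped, with a log2 fold change of -0.048 and a 95% confidence interval of -0.20 to 0.10 (limma adjusted p = 0.617). With a replicate left out, that fold change ran from -0.085 to -0.017. Within samples the ratio of Ctps to Ctps2 rose from 8.17 ± 0.524 (SD, n = 3) to 10.6 ± 0.540 (SD, n = 3) without overlap, or by 0.38 on the log2 scale, a measure in which any factor that scales a whole sample drops out.

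Of the ribonucleotide reductase subunits, the large one was higher in M8 and the small one did not pass the test. Rrm1 had 64.9, 65.2 and 63.0 FPKM in the parental samples and 73.8, 72.0 and 71.0 FPKM in M8. Within each line the samples lay close together, with coefficients of variation of 1.88% in parental cells and 2.0% in M8. The log2 fold change was 0.16 (SE 0.038, limma adjusted p = 0.0128), but under quantile normalization it was 0.088 and the adjusted p was 0.134. Rrm2 had 86.2, 88.9 and 85.9 FPKM in parental cells and 92.4, 93.9 and 87.0 FPKM in M8. M8 replicate 3 fell within the parental range. The log2 fold change was 0.066 (95% confidence interval -0.03 to 0.16, limma adjusted p = 0.274).

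Rrm2b, the p53-inducible small subunit that serves cells outside S phase, was lower in M8. It had 10.3, 9.88 and 11.2 FPKM in parental samples and 8.19, 7.44 and 7.70 FPKM in M8. The M8 samples were all below the parental ones (log2 fold change -0.39, SE 0.064, limma adjusted p = 0.00291). Within samples, the ratio of Rrm2 to Rrm2b was 8.36, 8.99 and 7.64 in parental cells and 11.3, 12.6 and 11.3 in M8, a rise of 0.50 on the log2 scale. The ratio of Rrm2 to Rrm1 was 1.33, 1.36 and 1.36 in parental cells and 1.25, 1.30 and 1.23 in M8, which fell by 0.10 on that scale. The 2 ratios moved in opposite directions, and neither overlapped between the lines.

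Of the enzymes around thymidylate, Tk1 and Dctd were higher in M8 and Dut did not pass. Tk1, the cytosolic thymidine kinase of S phase, had 47.7, 49.2 and 51.2 FPKM in the parental samples and 61.5, 62.9 and 59.6 FPKM in M8. The lowest M8 sample was above the highest parental one. The log2 fold change was 0.31 (SE 0.043, limma adjusted p = 0.00145). Dctd, which deaminates dCMP to dUMP, had 13.4, 15.3 and 15.2 FPKM in parental cells and 18.8, 16.2 and 18.9 FPKM in M8. M8 replicate 2 came closest to the parental samples. The log2 fold change was 0.28 (SE 0.073, limma adjusted p = 0.0212).

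Dut, which removes dUTP before it can be built into DNA, had 77.3, 88.1 and 94.3 FPKM in parental cells and 86.0, 90.1 and 89.0 FPKM in M8. The M8 samples lay inside the parental range, whose lowest value was that of replicate 1. The coefficient of variation was 9.95% in parental cells and 2.39% in M8, and the log2 fold change was 0.033 (95% confidence interval -0.11 to 0.18, limma adjusted p = 0.736). Tyms, thymidylate synthase, is a folate enzyme that uses the dUMP these genes supply. It had 16.8, 16.2 and 16.8 FPKM in parental cells and 19.9, 20.3 and 21.4 FPKM in M8, which is higher by 0.29 on the log2 scale (SE 0.048, limma adjusted p = 0.00289). The ratio of Dut to Tyms was 4.59, 5.44 and 5.61 in parental samples and 4.33, 4.44 and 4.15 in M8, so it fell by 0.27 on the log2 scale.

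Tk2, the mitochondrial thymidine kinase, went the other way from Tk1. It had 13.0, 13.5 and 13.7 FPKM in parental cells and 10.8, 11.1 and 11.9 FPKM in M8, so it fell by 0.23 on the log2 scale (SE 0.054, limma adjusted p = 0.0130). The ratio of Tk1 to Tk2 rose from 3.69 ± 0.0495 (SD, n = 3) to 5.46 ± 0.391 (SD, n = 3), or by 0.56 on the log2 scale, the largest shift of the 7 ratios compared. In 6 of the 7 ratios the lines did not overlap. For those 6, an exact two-sided permutation test gave p = 0.1, the smallest that 3 samples against 3 allow, and p = 0.117 after adjustment over the 7, so no ratio could reach 0.05. How many other gene pairs separate in this way was not computed. Among single genes tested, all M8 samples were above the parental ones for 24.8% and below them for 20.4%. The ratios are built from the gene values already given and are no separate result.

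**Figure D2:**
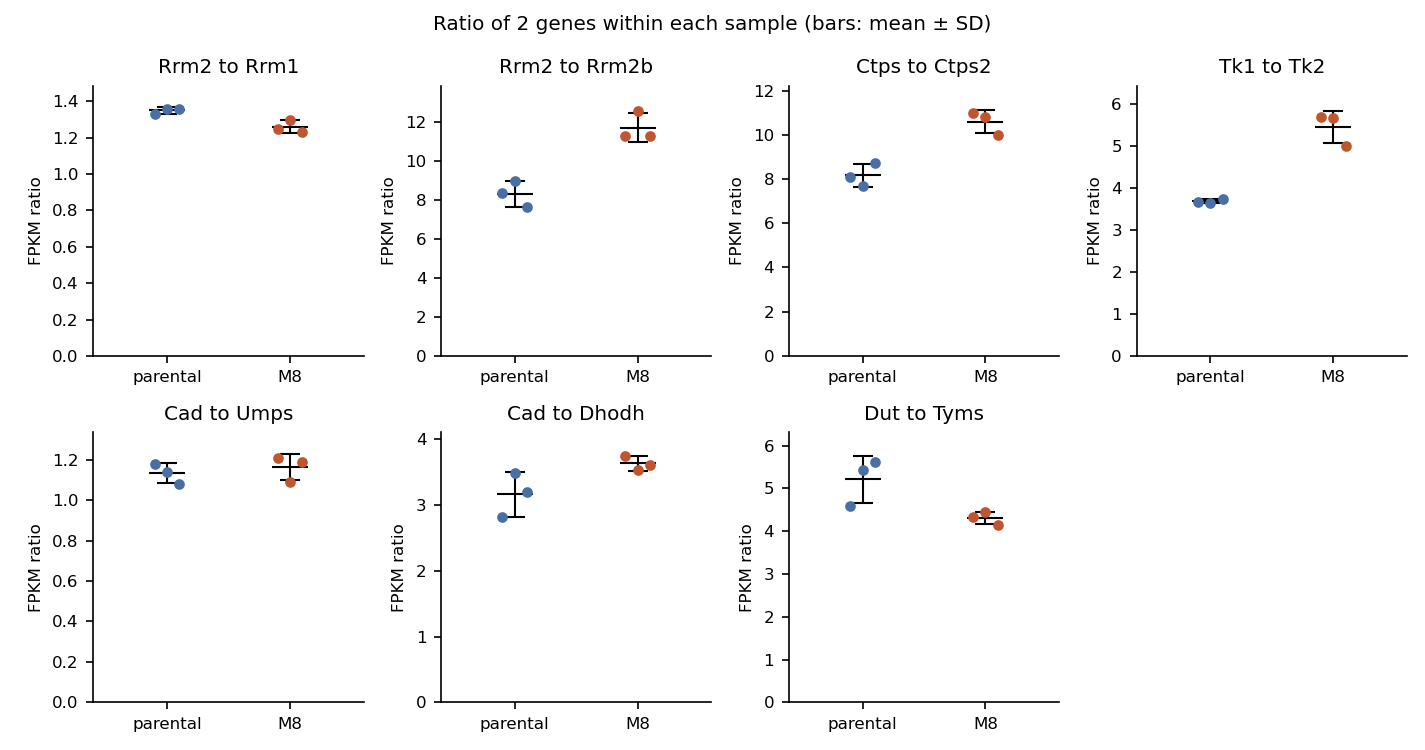
FPKM ratio of 2 genes within each of 3 parental (blue) and 3 M8 (orange) samples, with bars for the mean ± SD; every axis starts at 0. The ratios of Rrm2 to Rrm2b, Ctps to Ctps2, Tk1 to Tk2 and Cad to Dhodh are higher in every M8 sample, those of Rrm2 to Rrm1 and Dut to Tyms are lower, and that of Cad to Umps overlaps.

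The spread between replicates can be set against the number of reads behind each enzyme. With the longest GENCODE coding transcript as length, between about 240 and 340 reads per sample stood behind Dhodh and 360 to 510 behind Ctps2, against 5300 to 6400 behind Rrm1. Counting error alone would give coefficients of variation of up to 6.5% for Dhodh, 5.3% for Ctps2, 4.1% for Dctd and 1.4% for Rrm1. The parental spread of Dhodh (12.2%) and Dut (9.95%, with 1.8% from counting) was wider than that, while in M8 the spread of Dhodh was 3.40%. Some enzymes that passed the test also had coefficients above counting error, such as Dctd (7.34% in parental cells and 8.54% in M8), Cad in M8 (6.02% against 1.8%) and Umps in M8 (5.26% against 2.7%). Others lay below it, such as Ctps in M8 (1.24% against 1.8%) and Ctps2 in parental cells (4.22% against 5.3%). Each coefficient rests on 3 values and is itself uncertain, and the excess over counting error was not tested. Where shorter transcripts prevail, reads are fewer and counting error is wider. Dhodh and Ctps2 thus had the fewest reads and the widest counting error of the 10 enzymes.

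Among 40 further genes of pyrimidine and deoxynucleotide handling, 31 had a mean of at least 1 FPKM and were tested. Of these, 11 were higher in M8 and 7 were lower, shares of tested genes to be read against 21.2% and 16.5% of all genes, and their median log2 fold change was 0.063. That median was -0.010 without parental replicate 2, 0.037 without parental replicate 1, 0.024 without M8 replicate 1, 0.12 without parental replicate 3 and 0.0024 under upper-quartile scaling. The salvage and nucleotide kinases had 5 higher and 2 lower among 15 tested. Cmpk2, a mitochondrial nucleotide kinase that is also an interferon-induced gene, rose from 10.5, 10.5 and 9.60 FPKM to 16.2, 14.0 and 15.0 FPKM (log2 fold change 0.52, limma adjusted p = 0.000859). Uck2, a uridine-cytidine kinase, rose by 0.26 (limma adjusted p = 0.0255) and Nme6, of the nucleoside diphosphate kinase family, by 0.25 (limma adjusted p = 0.00940). Dck, which phosphorylates deoxycytidine, was lower in M8 with a log2 fold change of -0.21 (limma adjusted p = 0.0215).

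Of 8 genes that partner ribonucleotide reductase or remove deoxynucleotides, 4 were higher and 2 lower, against 21.2% and 16.5% of all genes tested. The count of higher genes was 3 under TPM, quantile and upper-quartile scaling and without a trend. It was also 3 without parental replicate 1, parental replicate 2, M8 replicate 1 or M8 replicate 2. Dnph1, a deoxynucleotide hydrolase, had 31.5, 31.6 and 30.7 FPKM in parental cells and 41.8, 43.1 and 40.1 FPKM in M8 (log2 fold change 0.40, limma adjusted p = 0.000459). Nt5m, the mitochondrial deoxyribonucleotidase, rose by 0.32 (limma adjusted p = 0.0130). Dctpp1, a dCTP pyrophosphatase, had a log2 fold change of -0.26 (limma adjusted p = 0.0192), and with Rrm2b it made up the lower genes of the list. Samhd1, the dNTP triphosphohydrolase, had a log2 fold change of 0.10 with a limma adjusted p of 0.0979, and the call held in 1 of 6 fits with a replicate left out, where the highest adjusted p was 0.260. It was also lost in 5 of 10 processing alternatives, among them TPM (adjusted p = 0.285), quantile normalization (0.559) and the replicate block (0.146).

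Of 7 genes of pyrimidine breakdown, 5 did not pass the filter, with Dpyd listed at 0 in all 6 samples. The other 2, Cda and Upp1, were lower in M8. Without the filter, 1 gene of the list was higher and 2 were lower among 6 tested, with a median log2 fold change of 0.023 against -0.34 with it. Tymp, thymidine phosphorylase, was below the filter, with 0.604 to 0.703 FPKM in parental cells and 1.01 to 1.25 FPKM in M8. Cda, cytidine deaminase, had 12.9, 12.0 and 14.2 FPKM in parental cells and 10.2, 11.7 and 9.91 FPKM in M8 (log2 fold change -0.28, limma adjusted p = 0.0253). Upp1, uridine phosphorylase, had 6.37, 7.03 and 8.60 FPKM and 5.99, 4.82 and 5.13 FPKM (log2 fold change -0.40, limma adjusted p = 0.0216). Among 5 transporters tested, Slc25a33, a mitochondrial pyrimidine nucleotide carrier, rose by 0.38 (limma adjusted p = 0.00201). Slc29a1, the nucleoside transporter of the plasma membrane, had a log2 fold change of -0.15 (limma adjusted p = 0.050), a call that was lost without parental replicate 2 or M8 replicate 1 (highest adjusted p = 0.174).

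**Figure D3:**
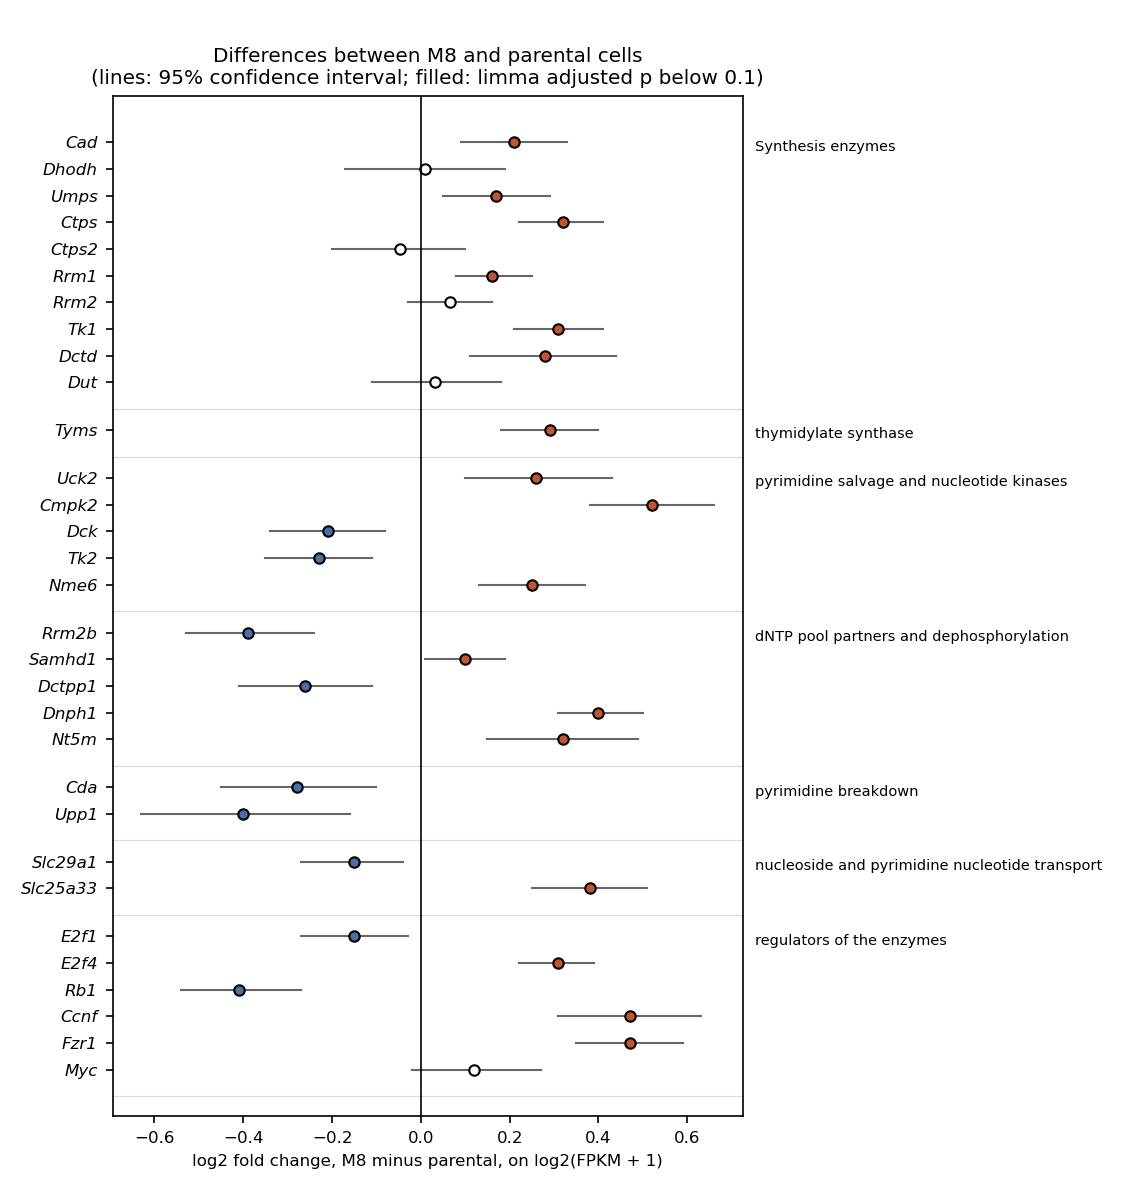
Log2 fold change (M8 minus parental, on log2(FPKM + 1)) with its 95% confidence interval for the 10 enzymes and the other named genes, grouped by role; filled points passed a limma adjusted p of 0.1, orange for higher and blue for lower. The enzymes reach at most 0.32, and the 9 blue genes, among them Rrm2b, Tk2, Cda and Upp1, lie below 0.

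Since ribonucleotide reductase and Tk1 follow the cell cycle, their differences were set beside lists of genes of the G1/S transition and of G2/M. Of 38 G1/S genes, 7 were higher and 4 lower in M8, against 21.2% and 16.5% of all genes. These counts were 5 and 10 under upper-quartile scaling, 5 and 9 under quantile normalization and 6 and 7 with TPM. Their median log2 fold change was 0.0060, and it was below 0 under TPM, quantile and upper-quartile scaling (lowest -0.054) and in 4 of the 6 fits with a replicate left out (lowest -0.018). Of 52 G2/M genes, 46 were higher and 0 lower, with a median of 0.31 that was at least 0.25 under the scalings tried. The median of the 10 enzymes (0.17) lay between these, and under upper-quartile scaling it was 0.11. The part of cell cycle stage in the differences of the enzymes was not tested.

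**Figure D4:**
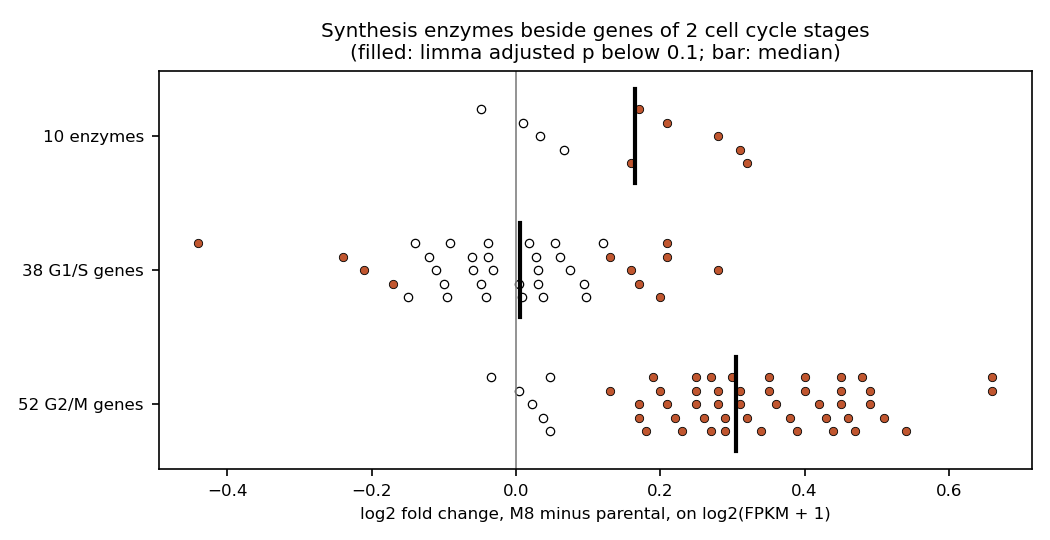
Log2 fold change (M8 minus parental) of each of the 10 enzymes, 38 G1/S genes and 52 G2/M genes, with filled points for a limma adjusted p below 0.1 and a bar at each median (0.17, 0.0060 and 0.31). The G1/S genes scatter around 0, whereas nearly all G2/M genes lie to the right, as do the 6 enzymes that passed the test.

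The 10 genes are spread over 9 chromosomes (GRCm38.p6, RefSeq). Cad lies on chromosome 5 from 31054620 to 31078479, Umps on chromosome 16 from 33954782 to 33967038 and Dhodh on chromosome 8 from 109593244 to 109608699. Ctps lies on chromosome 4 from 120539868 to 120570276 and Ctps2 on chromosome X from 162901268 to 163034541. Rrm1 is on chromosome 7 (102441695 to 102469771), Rrm2 on chromosome 12 (24708254 to 24714146), Tk1 on chromosome 11 (117815519 to 117826087), Dctd on chromosome 8 (48099092 to 48141667) and Dut on chromosome 2 (125247248 to 125259049). Protein-coding genes overlap 3 of them, Atraid with Cad, S100g with Ctps2 and Afmid with Tk1, and a pseudogene also lies over Ctps2. The libraries were stranded, but whether the FPKM calculation used the strand is not given in the sources used here, so these 3 levels could include reads of the overlapping genes.

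**Figure D5:**
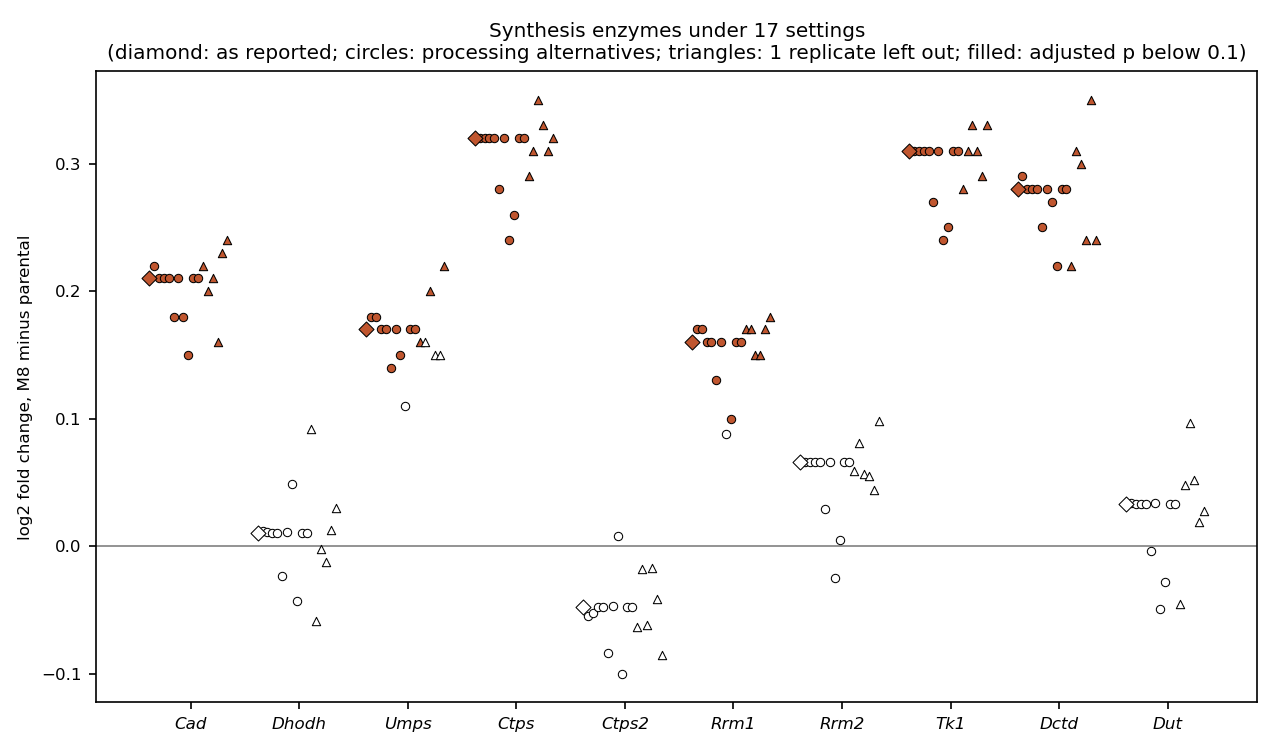
Log2 fold change (M8 minus parental) of the 10 enzymes as reported (diamond), under 10 processing alternatives tested against the same threshold (circles) and with each of 6 replicates left out (triangles); filled points have an adjusted p below 0.1. Cad, Ctps, Tk1 and Dctd are filled throughout, Umps and Rrm1 lose the call in 4 and 1 fits, and the other 4 enzymes are never filled.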

How the data were processed

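RNA sequencing covered 3 parental and 3 M8 samples. The authors mapped single reads of stranded mRNA libraries to mm10 and deposited FPKM values, 1 table per sample. The submitters' processing notes name TopHat2 2.1.1, Bowtie2 2.2.8, SAMtools 0.1.18 and Cuffdiff 2.2.1, whereas the study's methods name Cufflinks and another TopHat version, so how the libraries were scaled against each other is not settled; annotation and filters are not given in the sources used here. The study's own comparison used read counts, not used here.

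Here, 10597 genes averaging 1 FPKM or more over the 6 samples entered limma 3.58.1 (R 4.3.3; lmFit and eBayes with trend, no covariate) as log2(FPKM + 1), with calls at an adjusted p below 0.1 after Benjamini-Hochberg adjustment over all of them. The fit was first tested on simulated data. Ratios used an exact permutation test. Depth was estimated from whole-read steps of genes with 1 GENCODE transcript, assuming fragments of 200 bases; 61.2% to 66.1% of low values came within 0.05 of a whole read. FPKM carry no counting interval. Named genes were all 10 enzymes, Tyms, 10 preset genes and up to 4 called genes with the largest change per list. Members and lists were chosen with earlier results of these data known. Alternatives were other pseudocounts, filters, scalings and thresholds, no trend, the replicate block and each replicate left out. Python 3.11.15 and pandas 2.3.3 made the tables.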

Additional observations from a re-analysis of the deposited data

How the results depend on the processing

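With each replicate left out in turn, 5 to 6 of the 10 enzymes were higher in M8 and 0 were lower, while 1609 to 2101 of all genes were higher and 1157 to 1672 lower. Without M8 replicate 1 the count of lower genes was 1157, against 1745 with all samples, and the cause was not tested. Upper-quartile scaling gave 1470 higher and 2769 lower genes in all and 5 higher enzymes, since Umps no longer passed (adjusted p = 0.119), and quantile normalization also gave 5, without Rrm1. Asking for a fold change of at least 1.5 left 0 enzymes, 42 higher and 74 lower genes, since the differences are smaller than that. With an adjusted p below 0.05 all 6 enzymes still passed. The signs of enzymes that did not pass were not fixed. Dhodh was at -0.023 with TPM and -0.043 with upper-quartile scaling, and from -0.059 to 0.092 with a replicate left out (-0.059 without parental replicate 2, -0.0018 without parental replicate 3, -0.012 without M8 replicate 1). Dut was at -0.0035 with TPM, -0.049 with quantile normalization, -0.028 with upper-quartile scaling and -0.045 without parental replicate 1, Rrm2 at -0.025 and Ctps2 at 0.0080 with quantile normalization. E2f1, given below, passed in 1 of 6 fits with a replicate left out. All 7 ratios kept their direction with a pseudocount of 1 and with each replicate left out. For the 6 ratios without overlap, leaving out 1 sample could not turn the sign, so this was fixed in advance. The replicate block leaves the mean difference of a ratio as it is, so it could not turn the sign either.

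Same-numbered samples of the lines did not deviate together (r of deviations 0.10, -0.11 and -0.033 across genes), so the numbers were not read as pairs. With the replicate block 6 enzymes were higher and 0 lower, as without it.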

Other observations

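Genes that regulate these enzymes were measured as well. Of 15 such genes, 5 passed the test as higher in M8 and 3 as lower, against 21.2% and 16.5% of all genes, and their median log2 fold change was 0.027. That median was -0.0062 without M8 replicate 1, 0.046 without M8 replicate 2, 0.052 without parental replicate 3, -0.0056 with TPM and -0.027 under upper-quartile scaling. Fzr1, an activator of the ubiquitin ligase that removes TK1 and RRM2 after mitosis, had 20.3, 22.5 and 20.2 FPKM in parental cells and 30.6, 28.3 and 29.5 FPKM in M8 (log2 fold change 0.47, limma adjusted p = 0.000693). Ccnf, the cyclin F that marks RRM2 for degradation in G2, had 14.1, 17.3 and 16.1 FPKM and 22.3, 21.2 and 23.2 FPKM (log2 fold change 0.47, limma adjusted p = 0.00201). E2f4 rose by 0.31 (limma adjusted p = 0.000857), while Rb1, the retinoblastoma protein that holds E2F factors in check, fell from 8.05, 8.30 and 7.55 FPKM to 5.91, 5.75 and 5.64 FPKM (log2 fold change -0.41, limma adjusted p = 0.00187). E2f1 had a log2 fold change of -0.15 (limma adjusted p = 0.0595), and Myc, a known activator of Cad, one of 0.12 (limma adjusted p = 0.182), with 72.6 to 88.5 FPKM in parental samples and 87.2 to 90.0 FPKM in M8. The Myc value ran from 0.046 to 0.19 with a replicate left out, passed the test without parental replicate 3 (limma adjusted p = 0.0457) and was 0.031 under quantile normalization. These are transcript levels, and no protein or nucleotide pool was measured in the files used here.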
